A study of Kryptolebias marmoratus with 5 samples.

Results

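The erythroid and early blood genes were examined in whole embryos of the mangrove killifish *Kryptolebias marmoratus*. They were chosen by RefSeq symbol, with no rule on their levels but with earlier results of these data known. The set held 10 symbols: *gata1a*, *tal1*, *lmo2*, *klf1*, *klf17*, *alas2*, *urod*, *slc4a1a*, *epb41b* and *spi1b*. Of these, 9 were matched in the annotation of the assembly ASM164957v2, and *epb41b* was not analysed here. The 9 genes stood among 22090 genes with coding sequences, and all 9 were among the 15362 genes whose CPM (the estimated reads of a gene scaled to the total of its library) averaged 2 or more.

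The study examined how tail development goes wrong in a pair of recessive mutants, *shorttail* (*stl*) and *balltail* (*btl*), and sequenced RNA from 5 pools of whole embryos, 1 pool for each group. WT was the *Hon9* strain, from which both mutant lines were derived by chemical mutagenesis with ENU. The *stl* embryos were homozygous for an amino acid substitution in Noto, a homeobox transcription factor of the notochord, and the *btl* embryos for a substitution in Msgn1, a transcription factor of the presomitic mesoderm. The *stl*-sibling and *btl*-sibling pools held phenotypically normal embryos of the same lines, which can include carriers of the mutation. The share of carriers in each pool is not analysed here. All pools were untreated, were kept at 26 °C and were collected at stage 17, and any of them could also hold stage 16 or 18 embryos, as the sample labels give it. The paper is not uniform on the stage, and its results name a later one. Each pool held 20 to 25 embryos, and the number of embryos of each stage in a pool is not given in the sources used here. With 1 library per group, differences could not be checked against replicates and are given without p-values.

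In fish embryos the first blood cells arise from lateral mesoderm and not from a bone marrow. Transcription factors of the GATA, bHLH and KLF families, together with the bridging protein Lmo2, switch on the genes for heme synthesis, hemoglobin and the red cell membrane. In the early mesoderm, Gata1 and Spi1 (PU.1) direct cells to the red cell and the myeloid fate respectively. Several of the genes are not restricted to blood: *tal1* and *lmo2* are also transcribed in endothelial precursors, *urod* is needed in every cell, and zebrafish *klf17* is also transcribed in the hatching gland. In RNA from whole embryos, fewer cells of a type and less RNA per cell cannot be told apart.

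The estimated reads summed to between 9147625 in *btl* and 12220249 in *btl*-sibling, and the TMM factors of edgeR, by which the library totals were scaled, ranged from 0.914 to 1.05. Both mutant lines carry substitutions, which need not change the level of the mutated gene. The labels were not checked by that level here. *noto* had 44 reads in *stl* and between 92 and 134 in the other libraries. *msgn1* had 2163 reads in *btl* and between 89 and 159 in the other libraries. A log2 fold change is given below on the log2(CPM + 0.5) scale, and the range beside it is a 95% interval that follows from the 2 read numbers (exact, Clopper-Pearson). That interval covers counting error only, and it compares 2 libraries and not 2 conditions.

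In summed CPM of the 9 genes, *btl*-sibling stood apart from the other 4 libraries. The CPM of the 9 genes added up to 493.8 in WT, to 486.5 and 483.9 in *stl*-sibling and *stl*, and to 335.1 and 486.6 in *btl*-sibling and *btl*. The 3 most abundant of them in CPM, *alas2*, *urod* and *slc4a1a*, make up most of each sum. By TPM, *btl* was near *btl*-sibling in *alas2* (51.4 and 50.9), above it in *urod* (97.6 and 89.8) and below it in *slc4a1a* (16.4 and 21.7). With TPM, the median log2 fold change of all genes was itself -0.55 in *btl* against *btl*-sibling and -0.30 in *btl* against WT. The TPM levels of *btl*, here and below, are given without removing that shift. Gene by gene, *btl*-sibling had the lowest CPM for 5 of the 9, as it did for 18.6% of all genes tested. By TPM it was lowest for 3 of the 9, against 4.76% of all genes, and *btl* was lowest for 4, against 69.5%. The highest CPM was in *btl* for 5 of the 9, against 34.5% of all genes tested, but the highest TPM was in *btl* for 0 of the 9, against 9.999% of all genes. In CPM, no gene of the 9 differed by 2-fold between any 2 libraries, and the largest span was that of *lmo2*, with a ratio of 1.99 between its highest and lowest CPM. By TPM, *slc4a1a* was past 2-fold between *stl* (37.1) and *btl* (16.4). The plot of levels by library shows the CPM of each gene.

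**Figure D1:**
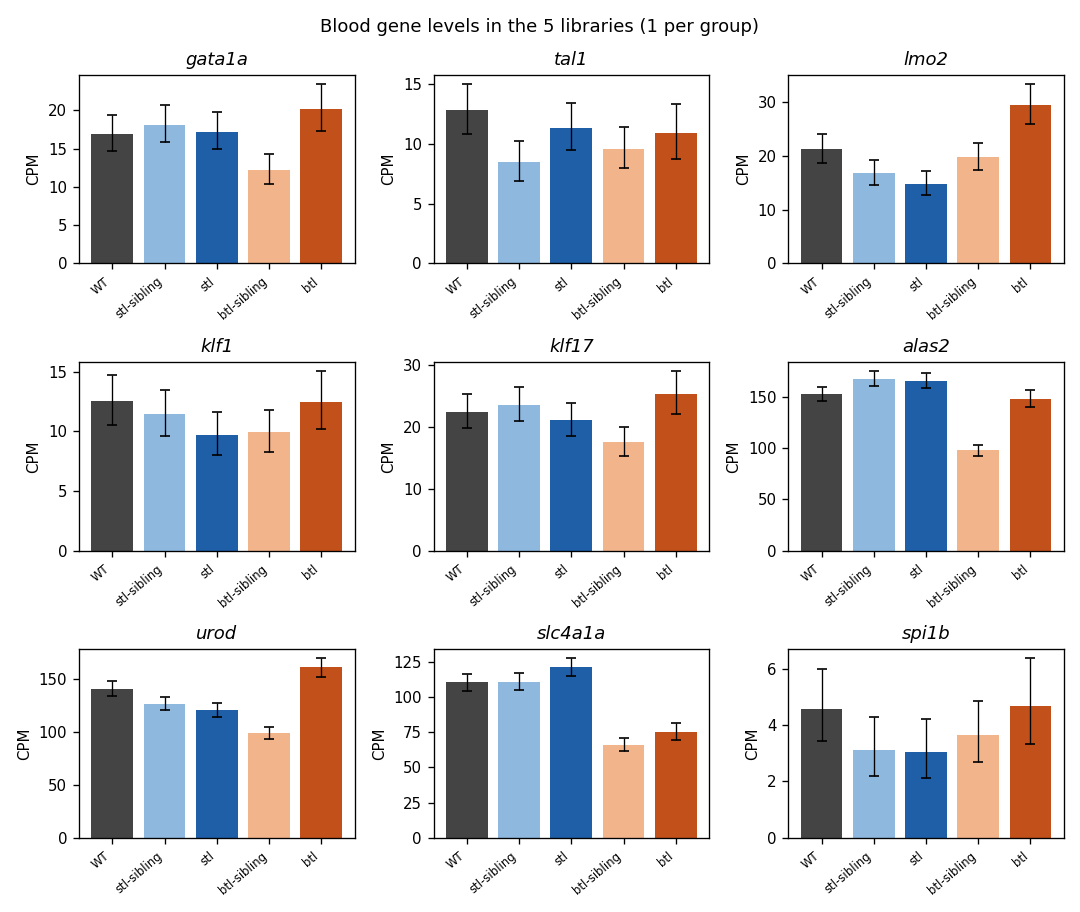
Level of each of the 9 blood genes in the 5 libraries, as CPM (bars, axis from 0 in each panel, with its own scale). Error bars are exact 95% intervals of the read number and cover counting error only. *alas2* was at 97.5 CPM in *btl*-sibling and between 147.6 and 167.5 CPM in the other 4 libraries, while for *spi1b*, with 36 to 53 reads, the error bars of all 5 libraries overlap. By TPM, which is not drawn, *alas2* was at 50.9 in *btl*-sibling and 51.4 in *btl*, the library where 69.5% of all genes had their lowest TPM.

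Levels of different genes were compared per length, as TPM (the library share of a gene scaled for coding sequence length). The order by mean TPM over the 5 libraries was *urod* (99.6), *alas2* (66.1), *lmo2* (42.7), *slc4a1a* (27.9), *klf17* (13.6), *gata1a* (10.8), *klf1* (8.87), *tal1* (7.69) and *spi1b* (4.32). The ranges over the libraries did not overlap between *urod* (89.8 to 106.7 TPM) and *alas2* (50.9 to 80.8), nor between *alas2* and *lmo2* (34.4 to 48.8). The range of *slc4a1a* (16.4 to 37.1 TPM) overlapped that of *lmo2* and lay above that of *klf17* (12.2 to 15.6). The ranges of *klf17*, *gata1a* and *klf1* each overlapped that of the next gene, which for *klf1* is *tal1*. *spi1b* (3.77 to 5.09 TPM) lay below all of them. These ranges span different genotypes, since no group has a second library.

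*gata1a* encodes the zinc finger transcription factor that directs cells to the red cell fate. The gene occupies linkage group 4 from 23070878 to 23075258. Its level was 16.9 CPM in WT (196 reads), 18.2 and 17.2 CPM in *stl*-sibling (221) and *stl* (204), and 12.2 and 20.2 CPM in *btl*-sibling (157) and *btl* (169). The first 3 of these libraries lay within counting error of each other. In CPM, *btl* was the highest, within counting error of *stl*-sibling (-0.14 to 0.45), and *btl*-sibling the lowest. By TPM, *gata1a* was lower in *btl* (10.1) than in WT (10.4), *stl*-sibling (12.4) and *stl* (11.8). Its log2 fold change was 0.70 in *btl* against *btl*-sibling (interval 0.41 to 1.05) and -0.07 in *stl* against *stl*-sibling (-0.36 to 0.20).

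*tal1* encodes a bHLH factor that blood and endothelial precursors need. It lies on linkage group 20 from 12152684 to 12157933. It was at 12.8 CPM in WT (148 reads), at 8.46 and 11.3 CPM in *stl*-sibling (103) and *stl* (134), and at 9.56 and 10.9 CPM in *btl*-sibling (123) and *btl* (91). Neighbouring libraries in the order of levels all lay within counting error of each other, with WT highest and *stl*-sibling lowest, although by TPM *btl* (6.10) was below *stl*-sibling (6.54). *tal1* had the highest log2 fold change of the 9 genes in *stl* against *stl*-sibling, at 0.40 (0.04 to 0.80), while *stl*-sibling was itself at -0.57 against WT (-0.97 to -0.22) and *stl* at -0.17 (-0.53 to 0.17).

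*lmo2* encodes the LIM-only protein that bridges Tal1 and Gata1 on DNA. It lies on linkage group 11 from 11712344 to 11715717, and its coding sequence of 483 nucleotides is the shortest of the 9. The level of *lmo2* was 21.2 CPM in WT (246 reads), 16.8 and 14.8 CPM in *stl*-sibling (204) and *stl* (176), and 19.8 and 29.5 CPM in *btl*-sibling (255) and *btl* (247). *btl* was above WT, the next highest, by more than counting error, and *stl* was the lowest, although by TPM *btl* (48.3) was below *btl*-sibling (48.8). Its log2 fold change was 0.57 in *btl* against *btl*-sibling (0.32 to 0.83). It was -0.50 in *stl* against WT (-0.80 to -0.23), but -0.30 after removal of the trend with coding sequence length. In *btl* against WT it was 0.47 (0.21 to 0.74), but 0.18 after removal of the trend with coding sequence length. With TPM it was 0.14 there, where the median of all genes was -0.30.

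*klf1* and *klf17* encode Krüppel-like factors. In mammals, Klf1 activates the adult beta-globin gene, and in zebrafish, Klf17 acts in primitive red cell formation. *klf1* (linkage group 3, 24873380 to 24876255) was at 12.5 CPM in WT, at 11.5 and 9.70 in *stl*-sibling and *stl*, and at 9.95 and 12.4 in *btl*-sibling and *btl*, from 104 to 145 reads. *klf17* (linkage group 20, 17332578 to 17335253) was at 22.4, 23.5, 21.0, 17.5 and 25.3 CPM in the same order, from 212 to 286 reads. In CPM, both were lower in *btl*-sibling than in *btl*, with log2 fold changes of 0.31 for *klf1* (-0.07 to 0.71) and 0.52 for *klf17* (0.26 to 0.81). By TPM, both were higher in *btl*-sibling than in *btl*, *klf1* at 9.11 and 7.58 and *klf17* at 12.6 and 12.2. Relative to the median of all genes with TPM (-0.55), both were higher in *btl*. In CPM, *klf1* varied the least of the 9, with a ratio of 1.29 between its highest and lowest level.

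*alas2* and *urod* encode enzymes of heme synthesis: *alas2* the red cell form of the enzyme for the initial step, and *urod* uroporphyrinogen decarboxylase, which acts later in the pathway. *alas2* (linkage group 8, 20764816 to 20771951) was at 152.4 CPM in WT (1765 reads), at 167.5 and 165.1 in *stl*-sibling (2038) and *stl* (1957), and at 97.5 and 147.6 in *btl*-sibling (1254) and *btl* (1235). In CPM, the 4 other libraries were thus close together, and *btl*-sibling lay well under them, at a log2 fold change of -0.64 against WT (-0.75 to -0.54) that only 2.79% of all genes tested went below. By TPM, *alas2* was low in both *btl*-sibling (50.9) and *btl* (51.4), with 67.0 in WT, 80.8 in *stl*-sibling and 80.6 in *stl*. In *btl* against *btl*-sibling the median of all genes was -0.55 with TPM. Relative to that median *alas2* was higher in *btl*, as were all 9 genes. *urod* (linkage group 20, 16800681 to 16808420) was at 140.7 CPM in WT (1629 reads), at 126.8 and 120.7 in *stl*-sibling (1543) and *stl* (1431), and at 98.8 and 160.8 in *btl*-sibling (1271) and *btl* (1345). Here too *btl*-sibling was lowest, but *btl* was above WT, with a log2 fold change of 0.19 (0.09 to 0.30) that turned to -0.13 with TPM. In *btl* against WT the median of all genes was -0.30 with TPM, and relative to that median *urod* was still higher in *btl*.

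*slc4a1a* encodes band 3, the anion exchanger of the red cell membrane. It lies on linkage group 12 from 3668218 to 3676899 and has the longest coding sequence of the 9, at 2745 nucleotides. Band 3 transcripts were at 110.3 CPM in WT (1277 reads), at 110.8 and 121.1 in *stl*-sibling (1349) and *stl* (1436), and at 66.2 and 75.1 in *btl*-sibling (851) and *btl* (628). It was the only gene of the 9 whose interval against WT lay below 0 in both libraries of the *btl* line, at a log2 fold change against WT of -0.73 in *btl*-sibling (-0.86 to -0.61) and -0.55 in *btl* (-0.70 to -0.42).

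*spi1b* encodes Spi1 (PU.1), the ETS factor of the myeloid fate, and is the only myeloid regulator of the set. It lies on linkage group 15 from 5580257 to 5591017. Reads of *spi1b* were few: its level was 4.58 CPM in WT (53 reads), 3.12 and 3.04 in *stl*-sibling (38) and *stl* (36), and 3.65 and 4.66 in *btl*-sibling (47) and *btl* (39). Its intervals held 0 in all 7 comparisons made, so no difference between libraries was detectable at this depth.

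In *stl* against its sibling, the comparison that asks how the *noto* mutation affects expression, the red cell genes lay close to their sibling level. None of the 9 was past 2-fold, against 1.21% of all genes tested. Log2 fold changes ran from -0.23 in *klf1* to 0.40 in *tal1*, with a median of -0.07, where the median of all genes was -0.0049. There were 7 genes below 0, where 51.1% of all genes were, and 2 above it, and the interval left out 0 only for *tal1* and for *slc4a1a* (0.13, 0.02 to 0.24). For *alas2* and *urod*, the 2 genes with the most reads, the values were -0.02 (-0.11 to 0.07) and -0.07 (-0.18 to 0.03). Against WT, 6 of the 9 were lower in *stl*, as were 51.9% of all genes, and 3 higher, with a median of -0.17. None was past 2-fold there either, against 2.73% of all genes.

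In *btl* against its sibling, the comparison that asks the same of *msgn1*, all 9 genes were above 0 after TMM scaling, where 48.3% of all genes were, but 7 were above 0 with library totals and 3 with TPM. The last 2 scalings moved the median of all genes to -0.22 and -0.55, and relative to that median all 9 were higher under every scaling. None was past 2-fold, against 7.6% of all genes. With TMM scaling the median of the 9 was 0.52, from 0.18 in *slc4a1a* to 0.70 in *gata1a*, and the intervals of *gata1a*, *lmo2*, *klf17*, *alas2* (0.60, 0.48 to 0.71), *urod* (0.70, 0.59 to 0.81) and *slc4a1a* (0.18, 0.03 to 0.33) lay above 0. Those of *tal1* (0.18, -0.22 to 0.59), *klf1* and *spi1b* (0.31, -0.30 to 1.0) held 0. Against WT, the same *btl* library showed no such direction: 5 genes were higher, as were 50.4% of all genes, and 4 lower, with a median of 0.02, and 0 of 9 were past 2-fold, against 4.37% of all genes.

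The *btl*-sibling pool itself lay below WT in these genes. In *btl*-sibling against WT, a comparison of 2 pools of normal-looking embryos, all 9 genes were below 0 with TMM scaling, where 49.6% of all genes were, and 8 of the 9 with library totals or TPM. Relative to the median of all genes, all 9 were lower under each of these scalings. The median of the 9 was -0.40, and *slc4a1a*, *alas2*, *urod* (-0.51, -0.62 to -0.40), *gata1a* (-0.46, -0.78 to -0.16), *tal1* (-0.40, -0.78 to -0.06) and *klf17* (-0.35, -0.62 to -0.09) had intervals below 0. None reached 2-fold, against 1.36% of all genes. The *stl*-sibling library did not share this: against WT 5 of the 9 genes were lower, as were 51% of all genes, and 4 higher, with a median of -0.12 and 0 of 9 past 2-fold, against 1.71% of all genes.

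Between the 2 sibling pools, *alas2* and *slc4a1a* had the largest log2 fold changes of the 9. In *stl*-sibling against *btl*-sibling, *alas2* was at 0.78 (0.68 to 0.88), *slc4a1a* at 0.74 (0.62 to 0.87) and *gata1a* at 0.55 (0.27 to 0.88). *lmo2* (-0.23, -0.51 to 0.03), *tal1* (-0.17, -0.57 to 0.21) and *spi1b* (-0.20, -0.88 to 0.42) lay below 0 with intervals that held it. None of the 9 passed 2-fold, against 2.12% of all genes. All of these comparisons share libraries with one another, so their values stand side by side and are not independent of each other. The plot of log2 fold changes by comparison gives 6 of the 7 with their intervals.

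**Figure D2:**
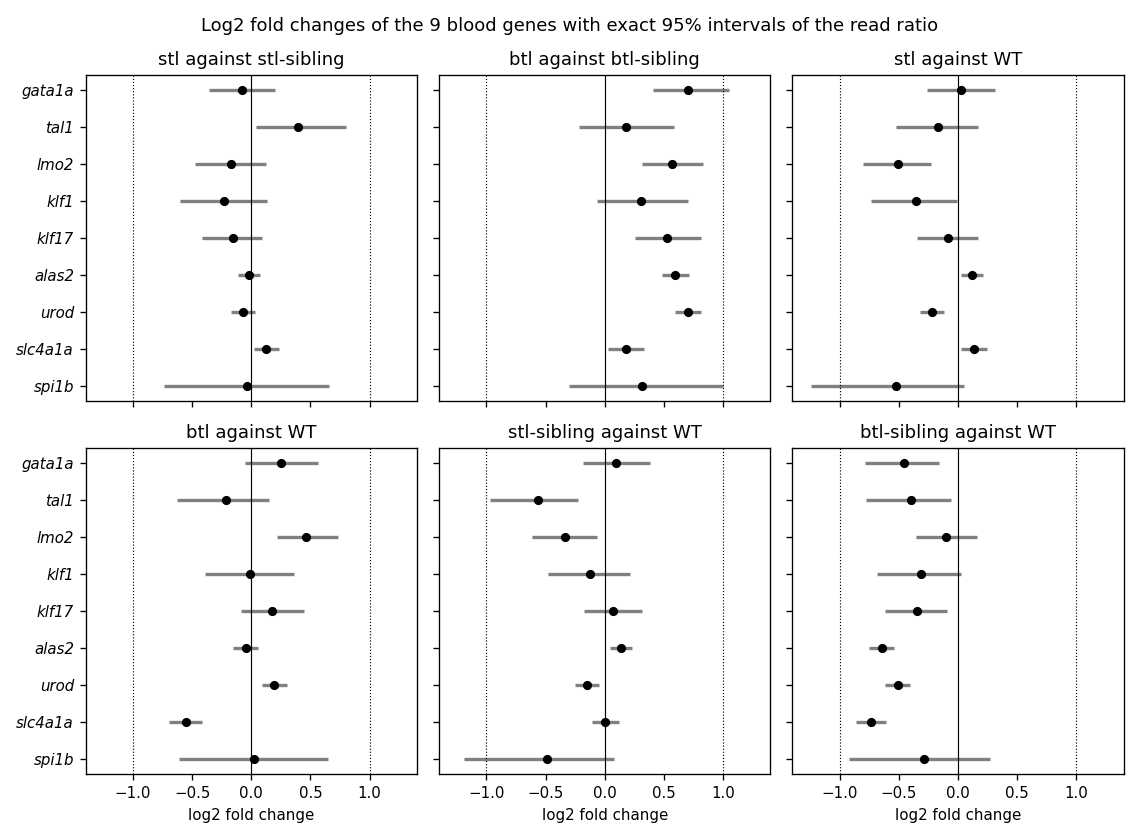
Log2 fold change of each of the 9 blood genes on the log2(CPM + 0.5) scale, in 6 comparisons (points), with the exact 95% interval of the read ratio (lines, counting error only) and dotted lines at 2-fold. With the TMM scaling drawn here all 9 points lie above 0 in *btl* against *btl*-sibling (7 with library totals, 3 with TPM) and below 0 in *btl*-sibling against WT (8 with library totals or TPM), and none crosses a dotted line.

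In *btl* against *btl*-sibling, log2 fold changes of all genes went with the length of the coding sequence, from a median of 0.79 in the shortest of 20 bins to -0.38 in the longest. With the bin medians subtracted, all 9 genes stayed above 0, with a median of 0.40. The short *lmo2* went from 0.57 to 0.09 and *spi1b* from 0.31 to 0.07, while the long *slc4a1a* went from 0.18 to 0.40 and *alas2* from 0.60 to 0.70. The part of length in these values was not tested further. In *btl*-sibling against WT the bins ran from -0.26 to 0.29, and with them subtracted 8 of the 9 genes stayed below 0, *lmo2* being at 0.09. In *stl* against WT the bins ran from -0.24 to 0.28, and 6 of the 9 genes were below 0 with or without them subtracted.

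**Figure D3:**
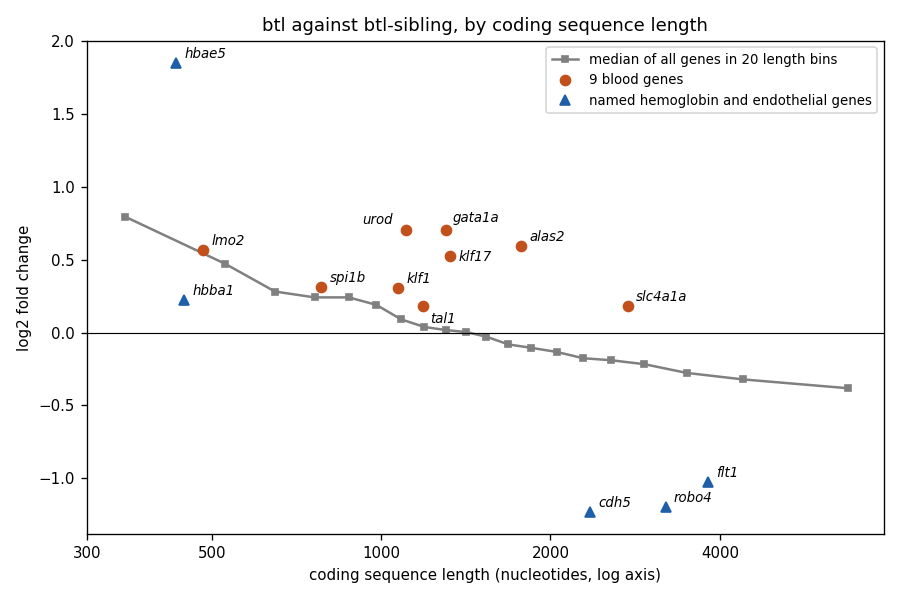
Log2 fold change in *btl* against *btl*-sibling (TMM scaling) by coding sequence length (log axis). Squares are medians of all 15362 genes in 20 bins of length, circles are the 9 blood genes and triangles are the named hemoglobin and endothelial genes. *lmo2* (0.57) lies close to the trend line, while *alas2* (0.60) and *slc4a1a* (0.18) lie above it although the line is below 0 at their lengths.

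Of the 9 genes, *gata1a*, *tal1* and *urod* have 2 annotated coding sequences each, between which Salmon divided the reads. For *gata1a*, whose coding sequences of 1305 and 1281 nucleotides differ little, all 196 reads of WT and all 204 of *stl* were assigned to the longer, and all 169 of *btl* to the shorter. The *stl*-sibling reads were split into 110 and 111, and the *btl*-sibling reads into 32 and 125. Because reads from the shared bases fit both, this split is uncertain, and the sum over the gene is the value used in every comparison. For *tal1*, between 86.4% and 100% of reads went to the coding sequence of 1158 nucleotides. For *urod*, between 83.2% and 100% went to that of 1107 nucleotides.

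**Figure D4:**
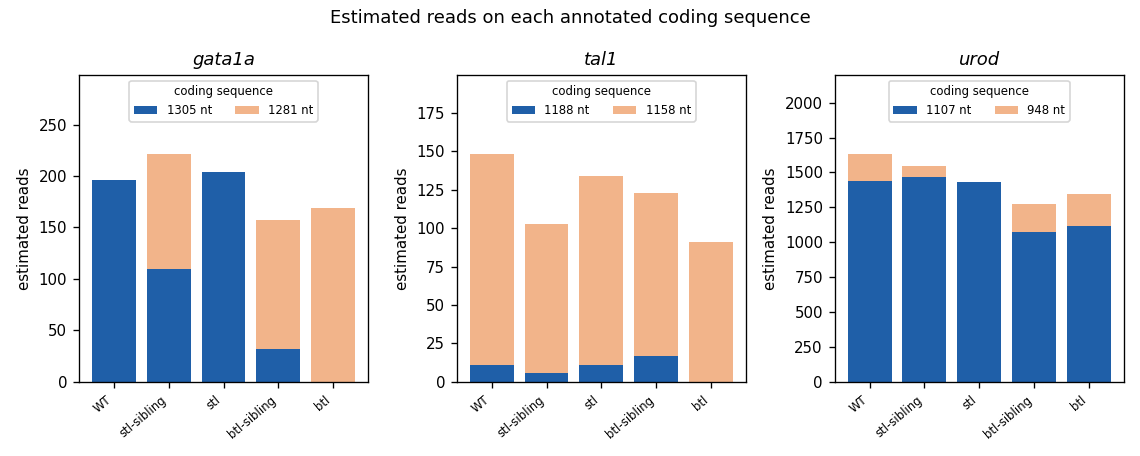
Estimated reads assigned to each of the 2 annotated coding sequences of *gata1a*, *tal1* and *urod* (stacked bars from 0, raw reads, not scaled for depth) in the 5 libraries. *gata1a* reads sit on the 1305-nucleotide sequence alone in WT and *stl*, on the 1281-nucleotide sequence alone in *btl*, and on both in the 2 sibling libraries.

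The other genes of red cells were taken from 2 lists, which do not hold the 9 genes. Among 13 tested genes of heme synthesis and iron supply, 2 were past 2-fold higher and 1 lower in *btl* against *btl*-sibling, where 4.33% and 3.27% of all genes were, with a median of 0.35 (-0.21 with TPM). None passed in *stl* against *stl*-sibling (1.21% of all genes), with a median of -0.11. The 2 higher were *uros* (1.06, 0.80 to 1.37), uroporphyrinogen III synthase, which acts just before *urod*, and *tmem14ca* (1.08, 0.95 to 1.22), which carries porphyrins in mitochondria. With the length trend removed they were at 0.82 and 0.29. The lower was *tfr1b*, a transferrin receptor that takes up iron, with 22.0 CPM in *btl* and 57.7 in *btl*-sibling (-1.37, -1.63 to -1.16). Its level in *btl*-sibling was also the highest of all 5 libraries, with 28.1 CPM in WT. Under TPM, *uros* and *tmem14ca* were at 0.49 and 0.50.

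Among 19 tested genes of the red cell membrane and its enzymes, 3 were past 2-fold higher (4.33% of all genes) and 1 lower (3.27%) in *btl* against *btl*-sibling, with a median of 0.45 (-0.12 with TPM). None passed in *stl* against *stl*-sibling (1.21% of all genes), with a median of -0.05. The 3 higher were *cahz* (1.1, 0.97 to 1.24), the red cell carbonic anhydrase of zebrafish, *nt5c3a* (1.09, 1.02 to 1.16), a pyrimidine nucleotidase, and *blvrb* (1.02, 0.92 to 1.12), biliverdin reductase B. *btl*-sibling was the lowest library for all 3: *cahz* was at 60.5 CPM there and at 103.8 in WT, and *blvrb* at 110.6 there and at 188.8 in WT. *nt5c3a* was at 200.7 CPM there, near *stl*-sibling (218.2) and *stl* (220.8), and was highest in *btl* (427.1), above WT (299.6). With TPM they were at 0.51, 0.52 and 0.43, and 0.98 or more above the median of all genes. With the length trend removed, *cahz*, *nt5c3a* and *blvrb* were at 0.86, 0.90 and 0.74, so none of them stayed past 2-fold. The gene past 2-fold lower was *ca2*, a carbonic anhydrase of many tissues (-1.03, -1.33 to -0.77), at -1.27 with the length trend removed. For *ca2*, *btl*-sibling was the highest library, at 34.4 CPM with 22.7 in WT, and *btl* against WT was at -0.44 (-0.76 to -0.15). In *btl*-sibling against WT the medians of the heme list and of this list were -0.28 and -0.30.

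The hemoglobin genes had another order of levels than the sum of the 9. *hbae5*, matched by its symbol as an alpha-type hemoglobin, was at 158.6 CPM in WT (1836 reads), at 45.5 and 53.5 in *stl*-sibling (554) and *stl* (634), and at 42.5 and 154.2 in *btl*-sibling (546) and *btl* (1290). In CPM, WT and *btl* were thus high, within counting error of each other, and the 3 other libraries were low. Its log2 fold change was 1.85 in *btl* against *btl*-sibling (1.72 to 2.01), and 1.05 with the length trend removed. With TPM it was 1.26, and 1.81 relative to the median of all genes. In *btl* against WT it was -0.04 (-0.14 to 0.06), but -0.57 with the length trend removed. With TPM it was -0.38 there, where the median of all genes was -0.30, and -0.08 relative to that median. In *stl*, *hbae5* was at 0.23 against its sibling (0.07 to 0.40) and at -1.56 against WT. *hbba1*, a beta-type hemoglobin with 47 to 82 reads, was at 6.74, 4.27, 6.92, 4.74 and 5.62 CPM in the same order, with no library beyond counting error of its neighbour in the order of levels. Against WT, *hbba1* was lower by more than counting error in *stl*-sibling (-0.60, -1.19 to -0.13) and in *btl*-sibling (-0.47, -1.01 to -0.0047). In *btl* against *btl*-sibling it was at 0.22 (-0.34 to 0.82), but at -0.57 with the length trend removed. Its log2 fold change in *stl* against *stl*-sibling was 0.64 (0.18 to 1.23). Hemoglobin genes under other symbols were not analysed here.

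Genes of other blood and vessel cells were described in the same way. Among 22 tested blood transcription factors, the median was -0.21 in *btl* against *btl*-sibling. The only one past 2-fold there was *cbfa2t3*, a corepressor that binds Tal1 complexes, at -1.09 (-1.88 to -0.58, 27 and 96 reads). Of all genes, 3.27% were past 2-fold lower. With the length trend removed *cbfa2t3* was at -0.92. Its level in *btl* (3.23 CPM) was near that of WT (3.71 CPM), at -0.18 (-0.95 to 0.53), while the 3 other libraries were at 7.06 to 7.46 CPM. In *stl* against *stl*-sibling the only gene of this list past 2-fold was *bcl11ab*, whose mammalian relative represses globin genes, at 1.46 (1.02 to 2.30), with 88 reads against 29, where 0.215% of all genes were past 2-fold higher. None of 4 genes of erythropoietin signalling passed 2-fold in either comparison with the sibling, where 1.21% of all genes did in *stl* and 7.6% in *btl*. Among 16 tested myeloid genes none passed in *btl* against the sibling (7.6% of all genes). There 15 of the 16 were above 0, where 48.3% of all genes were, with a median of 0.52, but with TPM 10 of the 16 were below 0, with a median of -0.06, and 15 were above the median of all genes. The myeloid median in *stl* against the sibling was 0.28. The CPM of the 20 myeloid genes in the annotation, 4 of them under the filter, added up to 671.9 in WT, to 562.2 and 541.1 in *stl*-sibling and *btl*-sibling, and to 673.7 and 676.2 in *stl* and *btl*. Both sibling pools were thus low, and no gene of these 20 was at 0 reads.

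Endothelial genes lay mostly below their sibling level in *btl*. Among 24 tested, 20 were below 0 in *btl* against *btl*-sibling, where 51.6% of all genes were, with a median of -0.49 (-0.26 with the length trend removed). Of these, 3 were past 2-fold lower, where 3.27% of all genes were. These were *cdh5* (-1.23, -1.62 to -0.92), the cadherin of endothelial junctions, *robo4* (-1.20, -2.09 to -0.66), a guidance receptor of vessels, and *flt1* (-1.03, -1.53 to -0.64), a VEGF receptor. Relative to the trend they were at -1.05, -0.92 and -0.75. The CPM of the 26 endothelial genes in the annotation, 2 of them under the filter, added up to 721.9 in WT, to 620.7 and 639.6 in *stl*-sibling and *stl*, and to 744.8 and 549.1 in *btl*-sibling and *btl*. Of these 26 only *plvapa* was at 0 reads in any library (*btl*). The thrombocyte genes had low levels, and 2 of 5 were tested. Of these 2, 1 was past 2-fold lower in *btl* against *btl*-sibling, where 3.27% of all genes were. It was *itgb3a*, an integrin subunit of platelets in mammals, at -1.31 (-2.07 to -0.83, 29 and 120 reads), or -1.13 with the length trend removed. Against WT, *itgb3a* was at -1.64 in *btl*. The part of blood and vessel cell numbers in the values of the 9 genes was not tested.

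**Figure D5:**
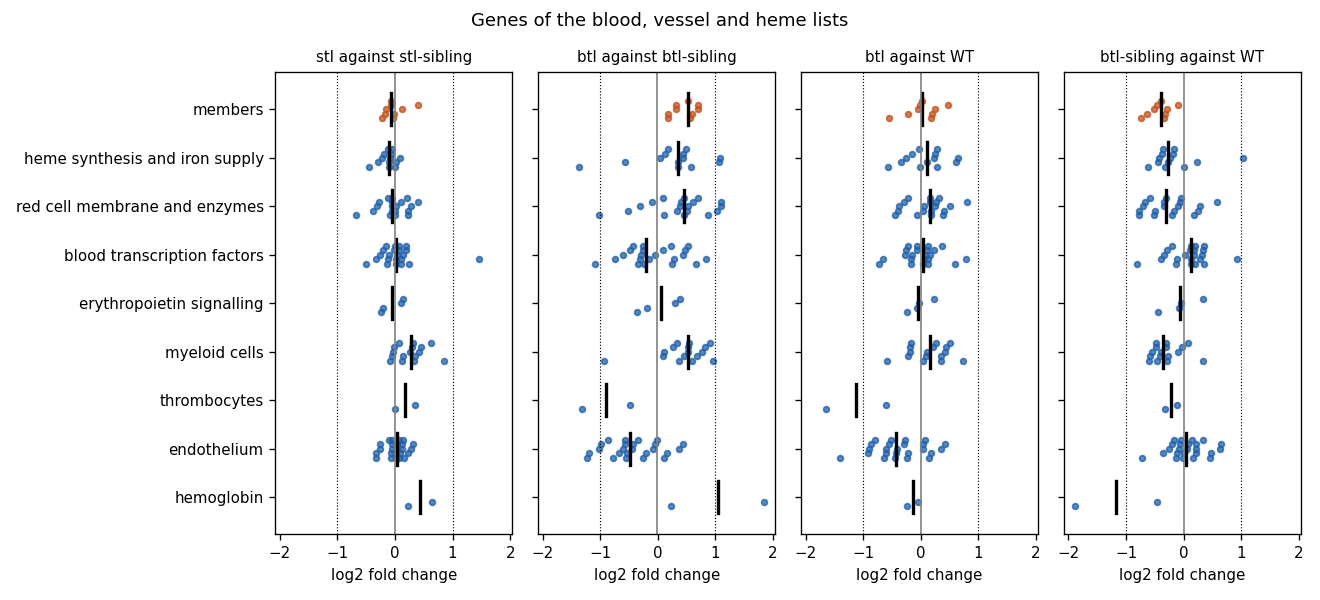
Log2 fold changes (TMM scaling) of the 9 blood genes (members) and of the tested genes of 8 lists (points) in 4 comparisons, with the median of each list (black bar) and dotted lines at 2-fold. In *btl* against *btl*-sibling the medians lie at 0.52 for the 9 genes, 0.45 for red cell membrane and enzymes, 0.52 for myeloid cells and -0.49 for endothelium. With TPM the myeloid and red cell medians are at -0.06 and -0.12, while they stay above the median of all genes.

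The genes with levels most like the mean of the 9 were ranked by the root mean square difference of their centred log2 levels over the 5 libraries, among the 10596 genes whose mean reached 10 CPM. The mean profile of the 9 was 0.14 in WT, -0.0070 and -0.03 in *stl*-sibling and *stl*, and -0.28 and 0.17 in *btl*-sibling and *btl*. The 8 closest genes were *vtna*, *nanos1*, *snu13b*, *mrpl49*, *acat1*, *c7b*, *alad* and *pelo*, with differences from 0.015 to 0.038, where the median gene was at 0.24. The ranking used TMM-scaled CPM only, with no length trend removed. Coding sequences were short in *snu13b* (387 nucleotides), *mrpl49* (546) and *nanos1* (669), and ran from 996 to 2487 nucleotides in the rest. The part of length in this ranking was not tested. *vtna*, which encodes the plasma protein vitronectin, was at 280.6 CPM in WT, at 245.8 and 242.1 in *stl*-sibling and *stl*, and at 205.5 and 283.6 in *btl*-sibling and *btl*. Only *alad*, the enzyme of the second step of heme synthesis, is on a list used here, at 95.5, 85.3, 86.2, 73.1 and 93.3 CPM. Of the 9 genes themselves, *klf17* (0.073), *urod* (0.084) and *klf1* (0.092) lay nearest to their own mean and *slc4a1a* (0.32) and *lmo2* (0.29) farthest from it.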

How the data were processed

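RNA of whole embryos was pooled and sequenced as 5 libraries, 1 per group. The authors trimmed the read pairs with fastq-mcf and ran Salmon 1.5.0 on the annotated coding sequences of the assembly ASM164957v2, and for each coding sequence deposited the estimated count and the TPM. TPM was used only to set genes side by side and as an alternative scaling. The labels name TRI reagent and TruSeq and the methods RNeasy and a directional protocol, and whether strand was used in counting is not given in the sources used here. The joined tables of counts and RPKM and the comparisons made with NOISeq, which hold the authors' own ratios and probabilities, were not used.

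Protein accessions in the annotation linked 37146 of 37181 coding sequences to 22090 genes, and the remaining 35, with at most 0.000785% of the reads of a library, were left out. Estimated counts were summed over each gene and were rounded only for the reads printed and for the intervals. R 4.3.3 with edgeR 4.0.16 gave the TMM factors for the CPM, and pandas 2.3.3, numpy 2.4.6, scipy 1.17.1 and matplotlib 3.10.9 under Python 3.11.15 did the rest. Log2 fold changes were taken after adding 0.5 CPM, for genes averaging 2 CPM or more, and 2-fold was the threshold. No test was possible with 1 library per group. Groups are compared in 7 pairs of libraries, which share libraries. Depth ranged from 9147625 to 12220249 reads, and a count of 3 reads was worth 0.233 to 0.359 CPM. Exact intervals cover counting error only, since read pairs are not independent embryos. The computation was tested on simulated data.

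The genes named are the 9 genes, of each list at most the 4 largest past 2-fold in each mutant against its sibling, the hemoglobin genes, and the 8 genes with the most similar profile. The hemoglobin genes were taken by symbol in place of the planned RefSeq description, and *plvapa* was named after its values were seen. The 9 genes, the lists and the alternatives were chosen with earlier results of these data known. The alternatives were other scalings (library totals, size factors of DESeq2 1.42.0, TPM), pseudocounts of 0.1 and 2, no filter or a minimum mean of 10 CPM, a 4-fold threshold, removal of the length trend, single coding sequences, and other reference libraries. The counts of genes above or below 0 were added after seeing the data. Promoter sequences were not analysed here.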

Additional observations from a re-analysis of the deposited data

How the results depend on the processing

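No gene of the 9 passed 2-fold in any of the 7 comparisons under any scaling, pseudocount, filter or length correction tried, nor under the other references, which were run for the comparisons with the sibling only. *stl* against *btl* was not among the 7 comparisons. The 4-fold threshold could not add a gene. With single coding sequences in place of gene sums, 1 gene of the 9, *gata1a*, passed in *btl* against *btl*-sibling, *btl* against WT, *btl*-sibling against WT and *stl*-sibling against *btl*-sibling. There only its coding sequence with the most reads was compared, which had 0 reads in *btl*, and *gata1a* was at -2.59 in *btl* against *btl*-sibling and -5.12 in *btl* against WT, values that depend on the pseudocount. The 9 genes above 0 in *btl* against *btl*-sibling became 3 with TPM, which moved the median of all genes to -0.55, and were 7 to 9 under the other alternatives, with 7 for *stl*-sibling as the reference. The 9 genes below 0 in *btl*-sibling against WT were 8 or 9 under all alternatives run. In the 4 comparisons of a mutant with its sibling or WT, of 288 single values of the 9 genes under alternatives, 244 kept within the main interval and 44 moved out of it, among them *slc4a1a* in *btl* against *btl*-sibling, at -0.02 with library totals, -0.39 with TPM and -0.56 against *stl*-sibling. The kept values were unevenly spread over the alternatives. All 36 values kept within the interval with DESeq2 size factors, and likewise with each pseudocount. With TPM, 16 moved and 20 kept. With the mean of the 3 normal libraries as the reference, 7 moved and 11 kept. With *stl*-sibling or *btl*-sibling as the other reference, 5 moved and 4 kept in each case. No paired analysis was possible because each group has 1 library, and leaving out a library was not possible for the same reason. *spi1b*, with 36 to 53 reads, had intervals such as -1.24 to 0.05 in *stl* against WT, so its depth limits any reading of it.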
